A study of Mus musculus with 10 samples.

Results

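The core promoters of protein-coding genes, the stretches of chromatin at which transcription of messenger RNAs begins, were followed in neural stem cell cultures of the adult mouse subependymal zone (SEZ) by ATAC-seq, in which a transposase cuts and tags accessible DNA. Peaks of all 10 libraries were merged into 137454 regions, of which 99231 held a peak in at least 2 lists. A consensus region counted as a core promoter when it lay on an autosome and its highest summit was within 1 kb of a protein-coding transcription start in GENCODE. This gave 15108 core promoters, beside 81080 autosomal regions elsewhere. They covered 13966 of the 20722 autosomal protein-coding genes (67.4%), and 1934 genes had 2 or more such regions.

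The study compared wild-type (WT) cultures with cultures from mice lacking p27 (p27KO), the Cdkn1b product that inhibits cyclin-dependent kinases, in proliferation (PRO) and at the onset of differentiation (DIFF). Cells came from mice 10 weeks old. PRO cells grew as neurospheres with EGF at 20 ng/ml and FGF at 10 ng/ml and were taken at 3 days in vitro. DIFF cells were plated at 40000 cells per cm2 on Matrigel with FGF for 2 days and then kept for 24 h in 2% serum without mitogens, so that PRO and DIFF also differed in substrate and serum. The 10 libraries, of 50000 cells each, comprised 3 of each condition in WT and 2 of each in p27KO. Groups followed the sample titles and genotype labels; the description field of the p27KO libraries names WT cells. No label says that libraries of a group came from separate animals, so p-values measure the spread between these libraries. A cell culture can hold several cell types, and a weaker peak in every cell cannot be told apart from an equal peak in fewer cells.

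Most mammalian promoters lie in CpG islands, where CG dinucleotides escape the loss seen in the rest of the genome, and these are open in nearly all cell types and belong largely to housekeeping genes. Promoters poor in CG more often belong to tissue-restricted genes, and some carry a TATA box, the site bound by the TATA-binding protein. Nucleosomes are cleared just upstream of an active start, which is where ATAC-seq signal peaks.

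The sequences of 10 core promoters are shown because the results turn on CG-poor promoters that changed and on promoters, most of them rich in CG, that were open in PRO and DIFF. CG dinucleotides are in capitals. Each is read 5′ to 3′ on the strand of the gene from GRCm38, and is the longest stretch without exon within 150 bp of the summit. The first 3 gained accessibility in WT cells at DIFF.
Pax4, chr6:28447988-28448287, minus strand: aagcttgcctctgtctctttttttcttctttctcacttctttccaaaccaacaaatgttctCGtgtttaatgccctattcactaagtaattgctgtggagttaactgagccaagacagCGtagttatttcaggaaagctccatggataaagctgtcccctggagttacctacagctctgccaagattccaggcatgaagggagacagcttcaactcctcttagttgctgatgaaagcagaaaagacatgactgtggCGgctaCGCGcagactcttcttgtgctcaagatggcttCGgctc
D630039A03Rik, chr4:57915311-57915596, minus strand: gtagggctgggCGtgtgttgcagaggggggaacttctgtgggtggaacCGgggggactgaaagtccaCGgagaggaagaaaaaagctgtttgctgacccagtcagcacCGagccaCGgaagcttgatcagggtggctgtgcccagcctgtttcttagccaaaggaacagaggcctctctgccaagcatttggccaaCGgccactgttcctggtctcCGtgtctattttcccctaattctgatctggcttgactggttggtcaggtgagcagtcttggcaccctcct
Lgals12, chr19:7606168-7606467, minus strand: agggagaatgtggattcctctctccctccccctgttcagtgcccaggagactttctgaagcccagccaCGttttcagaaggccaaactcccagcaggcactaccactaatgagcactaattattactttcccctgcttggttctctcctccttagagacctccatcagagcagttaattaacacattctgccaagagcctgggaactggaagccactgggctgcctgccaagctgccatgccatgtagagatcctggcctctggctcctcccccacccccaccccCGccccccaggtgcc
The next 3 lost accessibility in WT cells at DIFF, and the sequence of Gm17677 holds no CG.
Gm17677, chr9:35740770-35741048, plus strand: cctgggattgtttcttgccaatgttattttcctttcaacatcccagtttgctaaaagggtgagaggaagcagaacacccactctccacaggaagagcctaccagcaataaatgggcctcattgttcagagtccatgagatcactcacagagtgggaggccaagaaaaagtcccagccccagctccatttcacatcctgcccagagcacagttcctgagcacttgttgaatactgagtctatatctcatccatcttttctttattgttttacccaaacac
Fam71f1, chr6:29318947-29319139, plus strand: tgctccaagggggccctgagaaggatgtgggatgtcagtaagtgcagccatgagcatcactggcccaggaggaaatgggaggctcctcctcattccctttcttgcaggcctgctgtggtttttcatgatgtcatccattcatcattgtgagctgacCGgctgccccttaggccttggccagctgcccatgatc
Klrb1c, chr6:128788642-128788776, minus strand: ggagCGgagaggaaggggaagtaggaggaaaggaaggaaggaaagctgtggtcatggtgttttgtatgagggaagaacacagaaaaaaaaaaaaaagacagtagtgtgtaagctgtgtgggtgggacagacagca
The next pair ranked at the top of every list.
Golph3l, chr3:95588698-95588933, plus strand: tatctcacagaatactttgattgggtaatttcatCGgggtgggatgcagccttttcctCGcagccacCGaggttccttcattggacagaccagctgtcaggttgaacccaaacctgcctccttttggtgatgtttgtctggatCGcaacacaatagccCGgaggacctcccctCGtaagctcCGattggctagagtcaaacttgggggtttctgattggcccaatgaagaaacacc
Hltf, chr3:20057636-20057810, plus strand: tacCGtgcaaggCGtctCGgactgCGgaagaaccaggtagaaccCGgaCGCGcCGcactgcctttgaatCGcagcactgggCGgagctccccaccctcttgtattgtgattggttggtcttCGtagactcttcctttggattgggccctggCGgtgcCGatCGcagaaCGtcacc
Uhrf1 and Cdkn1b were added after their values were seen.
Uhrf1, chr17:56304050-56304312, plus strand: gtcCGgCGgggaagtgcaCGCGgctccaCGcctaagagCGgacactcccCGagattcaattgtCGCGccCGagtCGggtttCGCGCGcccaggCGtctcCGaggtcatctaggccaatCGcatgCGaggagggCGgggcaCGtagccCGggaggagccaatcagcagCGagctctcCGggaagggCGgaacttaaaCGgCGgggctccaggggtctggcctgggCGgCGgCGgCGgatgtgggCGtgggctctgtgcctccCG
Cdkn1b, chr6:134920222-134920400, plus strand: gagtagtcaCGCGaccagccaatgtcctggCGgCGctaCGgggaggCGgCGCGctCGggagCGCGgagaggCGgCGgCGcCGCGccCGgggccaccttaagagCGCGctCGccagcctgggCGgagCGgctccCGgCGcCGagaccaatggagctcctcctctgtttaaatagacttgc
In the 300 bp around the summit there were 34 CG in Uhrf1, 29 in Cdkn1b, 26 in Hltf and 8 in Golph3l. There were 7 in D630039A03Rik, 6 in Pax4, 2 in Lgals12, 2 in Fam71f1, 1 in Klrb1c and 0 in Gm17677. The count of Golph3l was thus close to those of D630039A03Rik and Pax4.

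Core promoters were nearly constant in where they were found. A peak was called in all 10 lists at 12119 of them (80.2%), against 24755 (30.5%) of the autosomal regions elsewhere, and in 2 to 4 lists at 1193 (7.90%). Their regions were wider, with a median of 1037 bp against 432 bp. They also ranked higher. Within each list every consensus region was ranked by the fold enrichment of its peak, with all regions where no peak was called sharing the lowest rank, and the rank was expressed as a percentile. The median core promoter had a mean percentile of 82.9 over the 10 lists, and the median region elsewhere 39.6. At the edge of the definition, 121 of the 295 regions with a summit over 900 and up to 1000 bp from a start had a peak in all lists (41.0%), and so did 114 of the 302 with a summit over 1000 and up to 1100 bp away (37.7%).

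The summit sat close to the start and mostly before it. Its median position was -23.5 bp from the nearest protein-coding start, with quartiles at -89 and 35 bp, and 60.1% of the summits were within 100 bp. By annotation 34.4% of the summits lay outside genes, 32.2% in a UTR, 22.6% in an intron and 5.51% in a coding exon. Regions with a summit within 100 bp were in all lists in 88.4% of 9081 cases, and those over 500 bp away in 46.7% of 1654.

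Sequence class separated the core promoters further. In the 500 bp around the start, 7557 were CpG-rich (GC of at least 55% and observed over expected CpG of at least 0.75), 3041 were CpG-poor (ratio under 0.48) and 4510 were intermediate. A peak was present in all 10 lists at 92.6% of the CpG-rich, 80.2% of the intermediate and 49.4% of the CpG-poor promoters. Median region widths were 1170, 972 and 600 bp, and median mean percentiles 87.6, 82.0 and 54.4, in the same order. Summits of CpG-poor promoters were spread more widely about the start, with 38.8% within 100 bp against 67.9% of CpG-rich ones, and 42.0% of them lay in an intron against 16.0%. The 1172 regions between starts of genes on opposite strands were in all lists in 95.0% of cases, with a median percentile of 90.3.

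**Figure D1:**
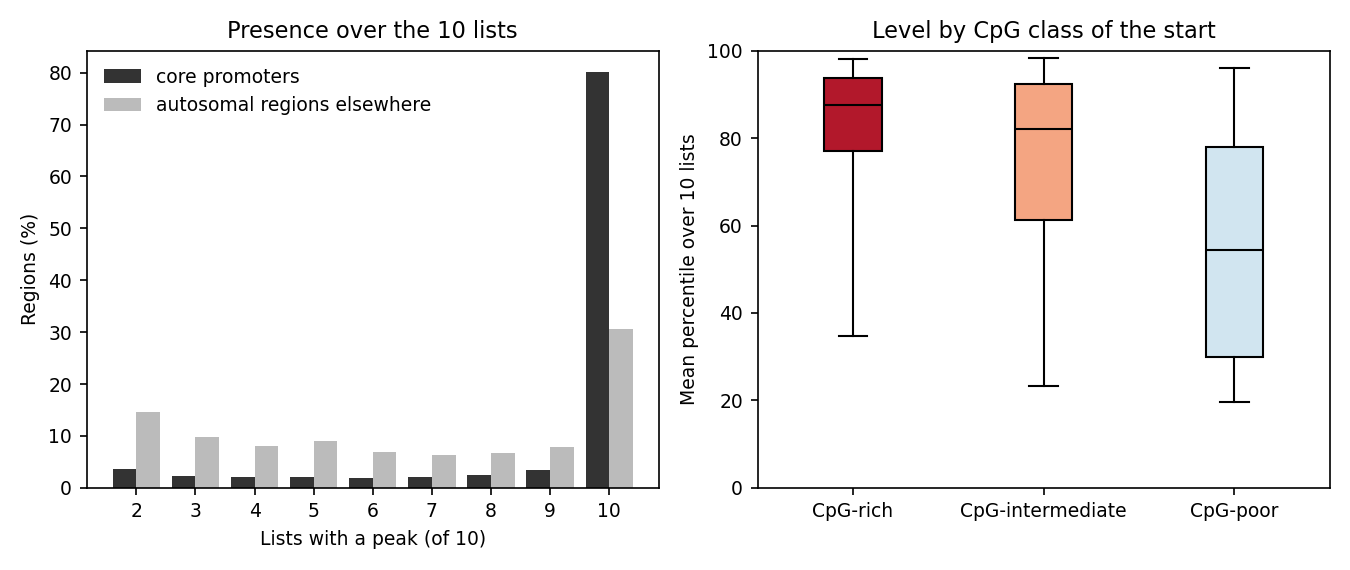
Left, percentage of regions (vertical axis) by the number of lists with a peak (horizontal axis) for the 15108 core promoters and the autosomal regions elsewhere; right, mean percentile over the 10 lists by CpG class, with boxes at the quartiles and whiskers spanning the central 90%. Core promoters pile up at 10 lists (80.2%), and the median percentile falls from 87.6 in CpG-rich to 54.4 in CpG-poor promoters.

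The core promoters with the highest ranks were Golph3l, a Golgi phosphoprotein, Hltf, a helicase-like DNA translocase, Zscan22, Scfd1, a vesicle docking factor, Zfp960, Mcm3, a subunit of the replicative helicase, Mccc2, Ggct and Dync2h1, the heavy chain of the cilium dynein. Their mean percentiles lay between 99.8 and 99.9. Gm10800 ranked with them, but near-identical copies of its sequence make its count of reads uncertain and only 25 bp of its window are free of exon, so none is shown. None of the 10 was called changed in either genotype.

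Genes that work in every cell had a core promoter in nearly every case. All 30 listed general transcription factors, which position RNA polymerase II at the start, all 40 subunits of RNA polymerase II and the Mediator, and all 30 genes of oxidative phosphorylation had a core promoter with a peak in all 10 lists, at median percentiles of 90.5, 90.9 and 93.8. Of the 29 autosomal S phase genes, all had a core promoter in all lists (median percentile 91.9), as did all 30 mitosis genes (94.9), in PRO and in DIFF. Among 30 genes of cholesterol synthesis and its SREBP regulators, 29 did (95.4). Zinc finger genes with the symbol Zfp had a core promoter at 355 of 385 genes, with a median percentile of 93.6.

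Cell type genes were split. Of 30 neural stem cell genes 29 had a core promoter, and Gfap, the astrocyte and stem cell filament, had its nearest region at chr11:102898281-102898911, with a summit 1323 bp from the start and a peak in all 10 lists. Of 30 neuronal genes 28 had one, of 26 oligodendrocyte genes 21 (not Sox10, Mog, Mag, Mobp or Ermn), of 24 astrocyte genes 22 and of 20 ependymal genes 17. Microglia, endothelium, and liver, muscle, skin, blood and germ line were represented by 4 of 20, 7 of 20 and 4 of 30 genes, and mural cells and fibroblasts by 13 of 20. Olfactory receptor genes (Olfr) had a core promoter at 43 of 1126 genes, 42 of them CpG-poor, and vomeronasal receptors at 5 of 326. Across all genes 67.4% had one.

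The cultures lacking p27 were checked first at the deleted gene. The core promoter of Cdkn1b (chr6:134919805-134920945, summit 29 bp upstream of the start, CpG-rich) had percentiles of 86.8, 88.4 and 87.9 in WT PRO and 87.3, 90.0 and 90.4 in WT DIFF. No peak was called there in any of the 4 p27KO libraries. The fold enrichment was 8.84 to 12.3 in the 6 WT libraries. Cdkn1b was the only core promoter called between genotypes by limma, at PRO and at DIFF. It passed the filter on 5 lists through its 6 WT lists, so its calls had to come out lower in p27KO. They are a description, and no p is given. A promoter found only in the 4 p27KO lists could not be tested. With a filter on 2 lists, 1 core promoter was called at PRO and 2 at DIFF, all lower in p27KO.

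Lists differed in length before any comparison. WT PRO lists held 76372 to 80179 peaks and p27KO PRO lists 83854 and 91801, against 61783, 57534 and 88738 in WT DIFF and 67589 and 73220 in p27KO DIFF, so that WT DIFF 3 stood apart from the other DIFF libraries. The read depth behind the lists is not known, and a longer list can hold weaker peaks. Core promoters moved less with list length than other regions. They had a peak in 93.2% ± 0.81 (SD, n = 3) of cases in WT PRO, 88.4% ± 4.2 (n = 3) in WT DIFF, 94.0% ± 1.6 (n = 2) in p27KO PRO and 88.9% ± 1.7 (n = 2) in p27KO DIFF. The regions elsewhere had one in 68.8% ± 2.1, 58.7% ± 15.0, 74.5% ± 3.9 and 60.4% ± 4.9 of cases.

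At DIFF core promoters made up more of the strongest peaks. Among the 10000 peaks of each list with the highest fold enrichment, core promoters took 45.4, 46.3 and 47.6% in WT PRO, 52.8, 57.1 and 53.3% in WT DIFF, 47.4 and 44.7% in p27KO PRO and 55.9 and 55.6% in p27KO DIFF. PRO and DIFF did not overlap in either genotype. The median percentile of the core promoters was 81.3 to 82.4 in the PRO lists of both genotypes and 83.8 to 85.2 in the DIFF lists. It was 2.66 points higher at DIFF (exact two-sided permutation test within genotype, p = 0.0167, the smallest that 120 arrangements allow; adjusted p = 0.1 over 6 comparisons), by 2.47 points in WT and 2.86 in p27KO. The share of all peaks in core promoters was 2.68 points higher (adjusted p = 0.167, exact permutation test) and the number of core promoters with a peak differed by -739.6 (adjusted p = 0.15, exact permutation test). Without WT DIFF 3 the differences were 2.77 points, 3.87 points and -921.7 core promoters, each with adjusted p = 0.025 by the same exact test. Between genotypes, within PRO and DIFF, the median percentile differed by 0.17 points (adjusted p = 0.71) and the number of core promoters with a peak by 100.8 (adjusted p = 0.71), both by exact permutation tests with a smallest p of 0.01. The share of peaks differed by -1.16 points (adjusted p = 0.705, exact permutation test), and by -2.34 points without WT DIFF 3 (adjusted p = 0.025, the same exact test).

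The rise in rank was seen in the CpG-rich and intermediate classes. Median percentiles of CpG-rich promoters were 85.6, 86.3 and 86.8 in WT PRO, 88.2, 89.8 and 88.8 in WT DIFF, 86.8 and 85.6 in p27KO PRO and 89.6 and 89.2 in p27KO DIFF. Those of intermediate promoters were 80.8 to 81.6 in the 5 PRO lists and 82.6 to 84.0 in the 5 DIFF lists. Those of the CpG-poor promoters stayed between 57.4 and 59.2 in all 10 libraries, without separation of PRO and DIFF.

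**Figure D2:**
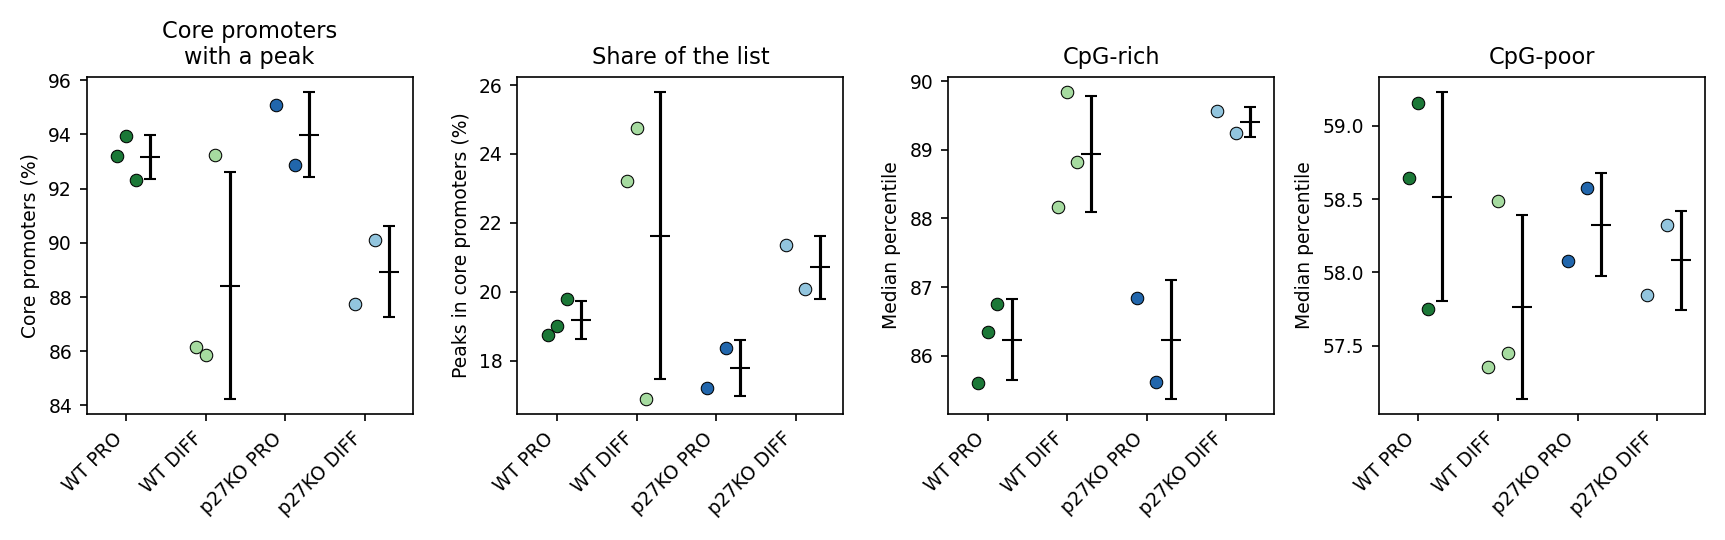
One point per library and bars at the group mean ± SD, by group on the horizontal axis: percentage of core promoters with a peak, share of peaks in core promoters (%), and median percentile of CpG-rich and of CpG-poor core promoters. CpG-rich promoters rank at 85.6 to 86.8 in PRO and 88.2 to 89.8 in DIFF, and WT DIFF 3 lies with the PRO libraries in the first panels.

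Changes at single core promoters were tested with limma on normal scores of the ranks (rank within the list converted to a standard normal value, so that 1 unit is 1 SD over all regions of a list), with a call at an adjusted p under 0.05 over the 70627 regions found in 5 lists or more, 13915 of them core promoters. In WT cells 281 core promoters were lower and 412 higher at DIFF than at PRO, 4.98% of those tested. Over all tested regions 10.1% were lower, 9.15% higher and 19.2% either way, and over those elsewhere on the autosomes 22.9% were called. In p27KO cells 140 core promoters were lower and 188 higher (2.36%), against 6.48% lower, 5.83% higher and 12.3% either way over all regions and 15.0% elsewhere. The split between lower and higher turned when regions were ranked otherwise, with 270 lower and 187 higher in WT and 86 and 60 in p27KO with ranks taken over the core promoters alone, and 372 and 320 in WT and 188 and 186 in p27KO with ranks by -log10 p. With a replicate block it was 225 lower and 219 higher in WT and 107 and 113 in p27KO. The median change of all core promoters was 0.12 in WT and 0.14 in p27KO on the normal score scale, 0.02 in both with ranks over the core promoters alone, and 0.04 and 0.08 with ranks by -log10 p.

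The number of calls rested on few libraries. Leaving out any of WT PRO 1 to 3, WT DIFF 1 or WT DIFF 2 left 306 to 351 calls in WT, and leaving out WT DIFF 3 left 619. In p27KO, 79 to 102 calls were left without any 1 of its own 4 libraries, where 1 arm then has a single library assumed to vary like the rest, and 212 without WT PRO 2.

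CpG-poor promoters changed most often and in both directions. In WT 169 were lower and 162 higher of 2386 tested (13.9%), against 74 and 84 of 4205 intermediate promoters (3.76%) and 38 and 166 of 7324 CpG-rich promoters (2.79%). In p27KO the shares were 8.59, 1.59 and 0.765%, with 104 lower and 101 higher CpG-poor, 27 and 40 intermediate, and 9 and 47 CpG-rich promoters. The median change was 0.00 in CpG-poor promoters of both genotypes and 0.15 in WT and 0.18 in p27KO in CpG-rich ones, of which 74.1% had a change above 0 in WT. The difference from regions elsewhere was also present at matched levels. At mean percentiles of 80 to 100, 214 of 8376 core promoters were called in WT (2.55%) and 1357 of 8992 regions elsewhere (15.1%), and at 40 to 60, 15.5% and 29.9%. Of the 1000 tested regions elsewhere that were CpG-rich at the summit, 15 were lower and 16 higher (3.10%).

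**Figure D3:**
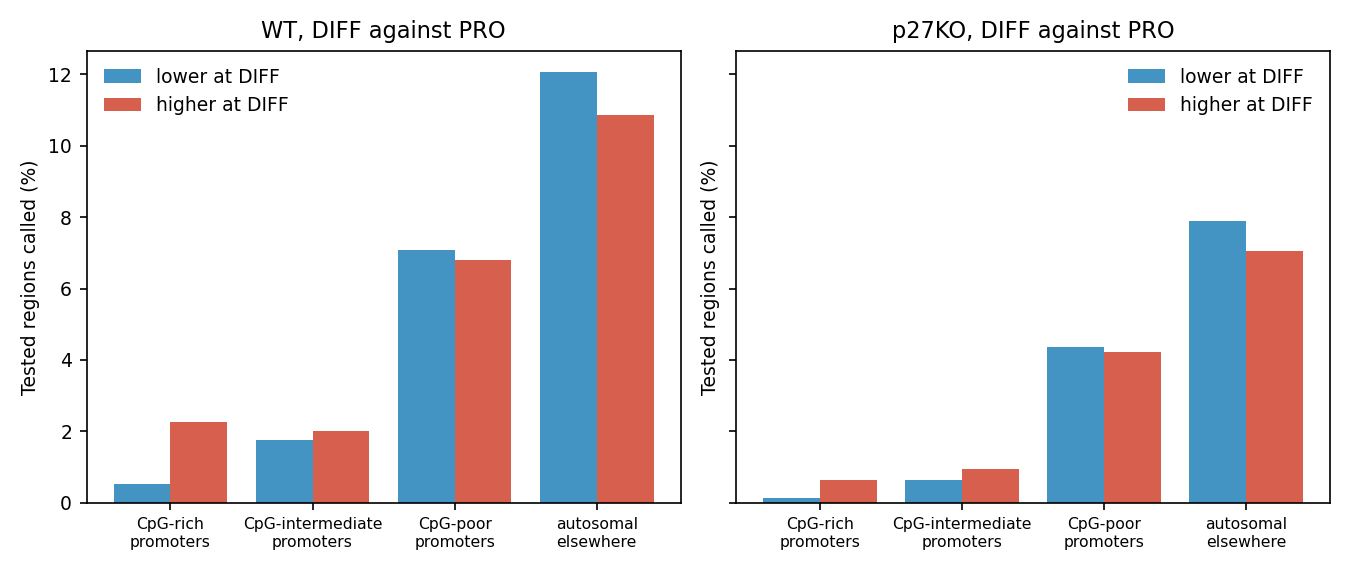
Percentage of tested regions called lower and higher at DIFF than at PRO (limma, adjusted p under 0.05; vertical axis) in CpG-rich, intermediate and CpG-poor core promoters and in autosomal regions elsewhere, for WT and p27KO. CpG-poor promoters were called in 13.9% of cases in WT and 8.59% in p27KO, between the CpG-rich class and the 22.9 and 15.0% elsewhere.

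The largest rises in WT cells were at Pax4, a paired-box factor of pancreatic islets, D630039A03Rik, Lgals12, a galectin of adipocytes, Ggta1, which adds terminal galactose to glycans, S100a16, a calcium-binding protein, Plin4, which coats lipid droplets, the vomeronasal receptor Vmn1r40, Lmod1, an actin filament nucleator of smooth muscle, the olfactory receptor Olfr1500 and Chil1, a secreted chitinase-like protein. All 10 promoters were CpG-poor. Each gene is represented here by the region nearest to one of its starts. The changes ran from 1.61 to 2.04 on the normal score scale in WT and from 0.97 to 2.12 in p27KO, where all 10 were also called.

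Pax4 had no peak in any of the 5 PRO libraries of both genotypes. Its region (chr6:28447994-28448375, summit 958 bp upstream of the start in an intron) had percentiles of 72.7, 81.9 and 70.6 in WT DIFF and 73.3 and 73.2 in p27KO DIFF. The change was 2.04 ± 0.18 (SE) in WT and 2.12 ± 0.22 in p27KO. Lgals12 was open throughout and rose. Its region (chr19:7605871-7607250, summit 785 bp past the start in an intron) stood at 47.5, 49.0 and 49.4 in WT PRO, 97.2, 92.9 and 91.0 in WT DIFF, 67.4 and 54.0 in p27KO PRO and 92.7 and 88.4 in p27KO DIFF. The change was 1.93 ± 0.21 (adjusted p = 0.000187, limma) in WT and 1.24 ± 0.26 (adjusted p = 0.0103, limma) in p27KO. S100a16 (chr3:90537221-90537418, summit 2 bp past the start) lacked a peak in WT PRO and p27KO PRO 2, stood at 23.1 in p27KO PRO 1, and reached 75.6, 71.0 and 62.2 in WT DIFF and 62.8 and 67.7 in p27KO DIFF.

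The largest falls in WT cells were at Gm17677, Fam71f1, a gene known from testis, the natural killer cell receptors Klrb1c and Klrb1a, P4ha2, a subunit of collagen prolyl hydroxylase, R3hdm1, Gm21915, the olfactory receptor Olfr549, Mpp4, a photoreceptor scaffold protein, and Spp1, the secreted matrix protein osteopontin. All 10 were CpG-poor and were called in p27KO too, with changes between -2.53 and -1.68 in WT and between -2.57 and -1.26 in p27KO.

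Gm17677 (chr9:35740370-35741360, summit 129 bp upstream) was among the highest core promoters at PRO, with percentiles of 94.4, 96.5 and 96.1 in WT and 99.4 and 96.2 in p27KO. At DIFF no peak was called in WT DIFF 1 and 2, and it stood at 42.3 in WT DIFF 3 and at 53.2 and 39.8 in p27KO. Its change was -2.53 ± 0.24 (adjusted p = 9.39e-05, limma) in WT and -2.57 ± 0.29 (adjusted p = 0.000542, limma) in p27KO. Klrb1c (chr6:128788497-128789059, summit 14 bp past the start) stood at 82.9, 78.1 and 84.8 in WT PRO and 79.6 and 81.3 in p27KO PRO and had no peak in any DIFF library. Spp1 (chr5:104434548-104435430, summit 49 bp upstream) had the same pattern, with 80.0, 65.1 and 77.3 in WT PRO and 68.6 and 81.6 in p27KO PRO. P4ha2 (chr11:54106933-54107553) stood at 91.9, 87.2 and 87.2 in WT PRO and 79.5 and 90.9 in p27KO PRO. At DIFF it stood at 46.8 in WT DIFF 1 and 39.0 in WT DIFF 3 and had no peak in WT DIFF 2 or in p27KO.

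Pax4, D630039A03Rik, Ggta1 and Plin4 had peaks only in the 5 DIFF lists, and Klrb1c, Klrb1a, Olfr549, Mpp4 and Spp1 only in the 5 PRO lists. They passed the filter on 5 lists through the condition in which they were high, so their calls had to come out in that direction and are a description. S100a16 had a peak in p27KO PRO 1 beside its 5 DIFF lists and passed the filter through the latter. Its calls are also a description. The WT calls of the other genes held under each alternative that could test them. The p27KO calls of Chil1, Gm21915, Lmod1, Olfr1500 and R3hdm1 were lost under 2 or more alternatives that kept all libraries, and those of Lgals12 and Vmn1r40 without 1 or another p27KO library. By the same rule p27KO cells added rises at Gm21885, Olfr1336, Mfsd13a, Hsd11b1, which regenerates active glucocorticoid, and Fxyd1, a regulator of the sodium pump. They added falls at Fsip1, the sodium channel Scn7a, Baalc and Psapl1. Baalc had peaks only in the 5 PRO lists, so its calls are a description. Fxyd1 and Scn7a could be tested in only 5 fits with a library left out, since losing a list with their peak took them below the filter. Their calls are likewise taken as a description. Mfsd13a was called in p27KO (1.63 ± 0.28, adjusted p = 0.00341, limma) and had a change of 0.17 ± 0.23 in WT (adjusted p = 0.653, limma), and its difference between genotypes did not pass the test.

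**Figure D4:**
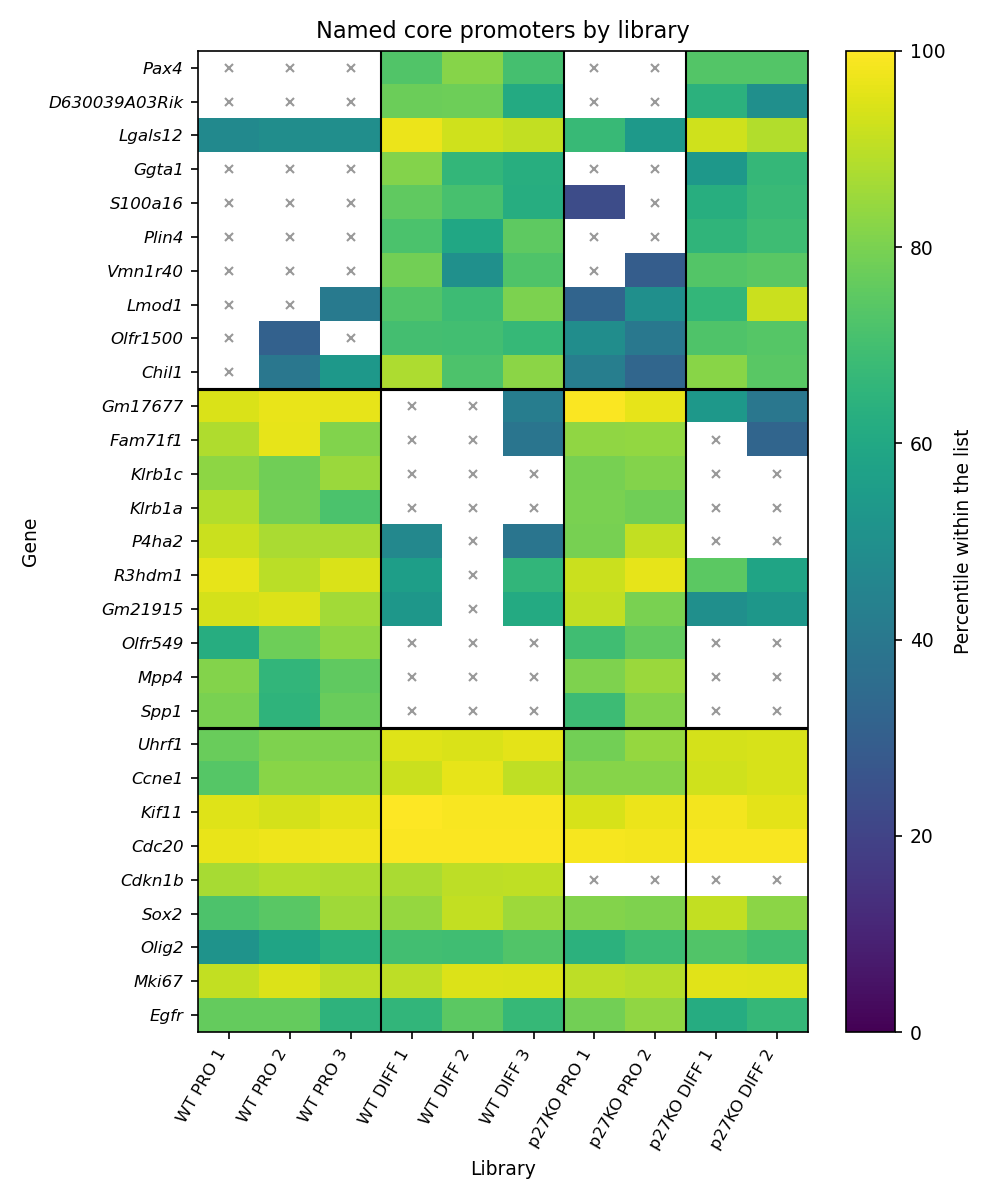
Percentile of the region's peak in each of the 10 libraries (columns, by group) as colour, with a cross where no peak was called, for the 10 largest rises and 10 largest falls in WT and for Uhrf1, Ccne1, Kif11, Cdc20, Cdkn1b, Sox2, Olig2, Mki67 and Egfr (rows). Rises and falls divide PRO from DIFF in both genotypes, and Cdkn1b lacks a peak in the 4 p27KO libraries.

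Some of the largest changes sat at a second promoter of a gene, as region nearest to another start. Within Tspan18, a tetraspanin, the region at chr2:93227614-93228317, 73 bp upstream of an internal start, had no peak in any PRO library and stood at 87.9, 84.7 and 81.3 in WT DIFF and 81.8 and 80.4 in p27KO DIFF. Its change was 2.44 ± 0.17 in WT and 2.43 ± 0.21 in p27KO, with no p given, since it passed the filter on 5 lists only through DIFF. The region 756 bp past the same start had a change of -0.96 in WT (adjusted p = 0.031, limma), and the CpG-rich region at the first start one of 0.08. In Sv2b, a synaptic vesicle protein, an intronic region rose by 2.36 ± 0.29 (adjusted p = 0.00033, limma) while another had a change of -0.72 (adjusted p = 0.0332, limma). Opposite calls at 2 regions of 1 gene were made in WT at 9 of the 1934 genes with 2 or more core promoter regions. These also included S100a4, Upp1, which cleaves uridine, Pcx, Pitpnm2, Disp1, Slc14a1 and Mapk3, the kinase ERK1. In each of the 9 genes at least 1 of the opposite calls was lost with some library left out. One S100a4 call was lost in 10 of 10 such fits, and the Pcx calls in 8 and 5. The Disp1 calls were lost in 4 and 8.

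Mapk3 showed this over a short distance. Its CpG-rich region 118 bp upstream of the start (chr7:126759198-126759650) stood at 56.0, 55.8 and 61.9 in WT PRO and 80.6, 78.9 and 81.3 in WT DIFF (0.81 ± 0.16, adjusted p = 0.00556, limma). The CpG-poor region 391 bp past the start (chr7:126760264-126761366) went from 72.1, 76.2 and 63.5 to 47.8, 57.0 and 41.0 (-0.73 ± 0.20, adjusted p = 0.0261, limma). In Upp1 the region 183 bp upstream fell by 1.05 ± 0.16 (adjusted p = 0.00121, limma), with 90.7, 91.0 and 89.4 in WT PRO and 67.8, 67.0 and 62.1 in WT DIFF, and the region 973 bp past the start had a change of 1.03 ± 0.24 (adjusted p = 0.0121, limma). Of these calls, those of Mapk3 upstream, Upp1 upstream and the rise in Sv2b held in WT whichever library was left out. The opposite call of each of these genes, and the fall in Tspan18, was lost without 1 library or more.

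Changes were also counted by presence alone. A core promoter counted as closed when all PRO libraries of a genotype had a peak and no DIFF library did, and as opened in the reverse case. In WT 174 core promoters closed (1.15%) and 51 opened (0.338%), where 4.32% of all consensus regions closed and 1.86% opened. In p27KO, with 2 libraries in each condition, 463 closed (3.06%) and 83 opened (0.549%), against 10.9 and 3.32% of all regions. The counts of the genotypes cannot be compared directly, since fewer libraries make the rule easier to meet, and without WT DIFF 3 the number closed in WT was 496. Leaving out 1 library of the genotype left 193 to 496 closed and 56 to 106 opened in WT, and 633 to 866 closed and 113 to 189 opened in p27KO. Closed in both genotypes were 81 core promoters, 7 CpG-rich, 17 intermediate and 57 CpG-poor, and opened in both were 25, of which 23 were CpG-poor and none CpG-rich. The closed ones with the highest percentiles were those of Ndst1, an enzyme of heparan sulfate synthesis, Ston2, Klrb1c, Klrb1a and Mpp4. The opened ones were those of Tspan18, Sdcbp (syntenin), Pax4, Plin4 and Zscan18.

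No listed cell cycle gene had a lower core promoter in WT after mitogen withdrawal. No core promoter of the 29 S phase genes was lower in WT and 7 were higher: Uhrf1, which keeps DNA methylation through replication, Ccne1 (cyclin E1), Mcm4, Pcna, the polymerase clamp, Gins2, Rpa2 and E2f1. The list's median change was 0.35, against 0.12 over all core promoters, and 24 of 29 were above 0. Of the 7 calls only that of Uhrf1 held whichever library was left out, and there were 1 and 2 higher calls with ranks by -log10 p and with ranks over the core promoters alone, where the list's median was 0.10 and 0.31. In p27KO Prim1 was lower and Rrm1 and Uhrf1 were higher, with a list median of 0.24. Each of these p27KO calls was lost with some library left out. Among 30 mitosis genes none was lower in WT and 4 were higher (Mad2l1, Ttk, Kif11 and Cdc20), and in p27KO Ube2c was higher. With ranks by -log10 p and over the core promoters alone, 1 and 2 were higher in WT and none in p27KO. Of these calls only that of Kif11 held whichever library was left out. Over all tested core promoters 2.96% were higher in WT and 1.35% in p27KO. Members were named here by their calls, beyond the rule for named genes. Mki67, the proliferation marker, had percentiles of 90.0 to 94.9 in WT PRO and 90.1 to 94.6 in WT DIFF, with a change of 0.08 ± 0.18 (adjusted p = 0.799, limma).

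Uhrf1 (chr17:56302744-56304531, CpG-rich, summit 113 bp upstream) stood at 77.3, 80.7 and 80.6 in WT PRO, 95.0, 94.4 and 96.1 in WT DIFF, 78.6 and 84.1 in p27KO PRO and 93.5 and 93.9 in p27KO DIFF. PRO and DIFF did not overlap. The change was 0.93 ± 0.16 (adjusted p = 0.00258, limma) in WT and 0.70 ± 0.20 (adjusted p = 0.0438, limma) in p27KO, and the WT call was lost with ranks by -log10 p. The p27KO call was lost under 6 of 14 alternatives that kept all libraries and in 9 of 10 fits with a library left out. Kif11, the spindle motor, went from 95.2, 93.4 and 95.9 to 99.7, 99.1 and 99.2 in WT (0.92 ± 0.20, adjusted p = 0.00803, limma), and its change in p27KO was 0.23 ± 0.24 (adjusted p = 0.617, limma). The difference between genotypes did not pass the test.

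Calls in the basal machinery were as rare as among all tested core promoters, of which 2.02% were lower and 2.96% higher in WT. Of the general transcription factors 1 was higher in WT (Gtf2f1, 0.56, adjusted p = 0.0399, limma, a region it shares with a neighbouring gene) and of RNA polymerase II and Mediator and of cholesterol synthesis none. In p27KO no gene of these lists was called. Their median changes were 0.19, 0.16 and 0.24 in WT and 0.13, 0.23 and 0.26 in p27KO.

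Of the immediate early and serum response genes, 26 of 28 autosomal ones had a core promoter and 24 were tested, with 5 higher in WT (Jund, Ier2, Klf6, Klf10 and Acta2) and 1 in p27KO (Klf6), where 2.96 and 1.35% of all tested core promoters were higher. Each of these calls was lost with some library left out. Klf6, a zinc finger factor, stood at 78.6, 79.3 and 86.2 in WT PRO, 95.3, 94.5 and 90.7 in WT DIFF, 81.8 and 84.5 in p27KO PRO and 97.9 and 95.3 in p27KO DIFF. With ranks over the core promoters alone none of the 24 was called in WT. Of 29 tested genes of the amino acid and unfolded protein response, Chac1, which degrades glutathione, was lower in WT (-1.18 ± 0.25, adjusted p = 0.0075, limma) and Shmt2 higher, and none was called in p27KO. Of 21 tested interferon response genes, Rsad2, Trim25 and Gbp3 were lower and Ifit1 and Ifit3, both antiviral proteins that bind foreign RNA, higher in WT, where 2.02% of all tested core promoters were lower and 2.96% higher. The 3 lower calls were each lost with 5 or more of the libraries left out in turn, and under other settings too. Ifit3 had a peak in 1 of 5 PRO libraries (percentile 33.5 in WT PRO 2). At DIFF it stood at 66.6, 65.2 and 57.5 in WT and 46.3 and 43.2 in p27KO. The change was 1.41 ± 0.21 in WT and 1.18 ± 0.25 in p27KO. No p is given, since Ifit3 passed the filter on 5 lists through its DIFF lists, and its calls are a description. With single libraries left out, its p27KO call was lost in 3 of 10 fits.

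Over all tested core promoters 2.02% were lower and 2.96% higher in WT and 1.01 and 1.35% in p27KO, which is the share to set beside each list's count. Single genes of the cell identity lists were called, a count near those shares. Of 29 tested neural stem cell genes 1 was lower in WT, Tnc, the matrix protein tenascin C, at 91.3, 90.3 and 92.3 in WT PRO and 84.0, 80.9 and 72.8 in WT DIFF (-0.61 ± 0.18, adjusted p = 0.0376, limma), and none in p27KO. Sox2 and Olig2, transcription factors of stem cells and of the oligodendrocyte lineage, had changes of 0.42 ± 0.21 (adjusted p = 0.205, limma) and 0.45 ± 0.17 (adjusted p = 0.0965, limma) in WT, and Egfr, the EGF receptor, one of -0.12 ± 0.19. Of 25 tested neuronal genes Stmn2 was higher in WT and Elavl3, a neuronal RNA-binding protein, in p27KO (1.18 ± 0.29, adjusted p = 0.0216, limma). None of 20 tested oligodendrocyte and 14 ependymal genes was called. Of 21 tested astrocyte genes Apoe, the lipid carrier, was higher, going from 32.7, 31.9 and 32.7 in WT PRO to 76.4, 81.9 and 65.5 in WT DIFF and from 34.2 and 53.9 to 81.0 and 65.5 in p27KO (1.48 ± 0.24, adjusted p = 0.00169, limma, in WT; 1.02 ± 0.30, adjusted p = 0.0474, limma, in p27KO). With single libraries left out, the calls of Tnc and of Stmn2 were lost in 7 of 10 fits each. In p27KO the call of Elavl3 was lost in 4 of 10 and that of Apoe in 9 of 10.

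Other lineages contributed single calls. P2ry12, the purinergic receptor of microglia, fell by 0.79 ± 0.18 in WT (adjusted p = 0.0106, limma) and 0.82 ± 0.22 in p27KO (adjusted p = 0.0343, limma). The WT call held whichever library was left out, and the p27KO call was lost in 6 of 10 such fits. P2ry12 had a peak in all 10 libraries, at percentiles of 89.3 to 95.0 in PRO and 71.7 to 79.3 in DIFF, while 16 of the 20 microglia genes had no core promoter region. The endothelial gene Erg and Cela1, an elastase, were lower in WT, at regions 953 and 722 bp past a start. With single libraries left out, the call of Erg was lost in 3 of 10 fits and that of Cela1 in 8 of 10. That of Cela1 was also lost under 8 of 12 alternatives that kept all libraries. None of the 9 tested mural cell and fibroblast genes was called. The part of other cell types in the cultures was not tested.

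Sequence motifs were counted in the 300 bp around each summit, on both strands. The GC box (GGGCGG) was found at 63.0% of core promoters and 8.54% of regions elsewhere, the ETS motif (CCGGAAG) at 14.6 and 2.09%, the CCAAT box (CCAAT) at 34.9 and 33.4%, the TATA box (TATAAA) at 4.15 and 12%, and the AP-1 motif (TGANTCA) at 4.57 and 12.8%. The E-box (CACGTG) was at 9.18% of core promoters, YY1 (AAGATGGC) at 4.13%, CRE (TGACGTCA) at 3.12%, NRF1 (CGCATGCG) at 2.89%, E2F (TTTCGCGC or TTTGGCGC) at 1.34% and ZNF143 (ACTACAAT) at 0.827%. CRE differs from AP-1 by 1 added letter and does not contain it. Matches are letters in a window and not shown sites.

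AP-1 letters stood at a larger share of the core promoters that fell, and also of the regions elsewhere that fell. They were present at 17.4% of the 281 lower and 3.40% of the 412 higher core promoters in WT, against 4.24% of all tested, and at 27.9% of the 140 lower ones in p27KO. Elsewhere on the autosomes they were at 28.8% of the 6594 lower and 7.14% of the 5939 higher regions in WT, against 12.6% of all tested. Within the CpG-poor class, 39 of the 218 tested promoters with the motif were lower in WT and 9 higher (17.9 and 4.13%), against 130 and 153 of 2168 without it (6.0 and 7.06%). In p27KO 34 were lower and 7 higher with the motif (15.6 and 3.21%), against 70 and 94 without it (3.23 and 4.34%). The median change with the motif was -0.24 in WT and -0.21 in p27KO, against 0.02 in both without it. With ranks by -log10 p it was -0.25 and -0.22 with the motif, against -0.02 and -0.03 without. With ranks over the core promoters alone it was -0.29 and -0.31, against -0.05 and -0.08. Of the 10 largest falls in each genotype only Mpp4 and, in p27KO, Baalc, a gene known from leukemia and brain, carried these letters. Of the 10 largest rises in each genotype only Vmn1r40 did. Baalc is shown as the example, with the AP-1 letters in capitals 30 bp past the summit.
Baalc, chr15:38932664-38932710, plus strand: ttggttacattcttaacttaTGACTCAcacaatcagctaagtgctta
The Baalc region (chr15:38932407-38933194, summit 490 bp upstream) stood at 56.6, 57.2 and 37.3 in WT PRO and 76.4 and 78.1 in p27KO PRO and had no peak at DIFF. It passed the filter on 5 lists through PRO, so its calls are a description. Among CpG-rich promoters, 82 of the 2517 with a CCAAT box were higher in WT and 9 lower (3.26 and 0.358%), against 84 and 29 of 4807 without (1.75 and 0.603%). In p27KO 15 with the box and 32 without were higher (0.596 and 0.666%), shares close to each other. Over all tested core promoters 3.61% with the box and 2.60% without were higher in WT, and 1.47 and 1.28% in p27KO. In p27KO the shares were 1.17 and 0.815% among intermediate and 4.80 and 3.94% among CpG-poor promoters.

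Most core promoters that changed did so with the same sign in both genotypes. The WT and p27KO contrasts share no library. Of the 693 core promoters called in WT, 657 (94.8%) had a change of the same sign in p27KO and 212 (30.6%) were also called there. Over all tested core promoters, 66.3% had a change above 0 in WT and 68.4% in p27KO, and 2.36% were called in p27KO. Of the 281 lower calls in WT, 39 had peaks only in the 5 PRO lists. Of the 412 higher calls, 25 had peaks only in the 5 DIFF lists. These passed the filter through that condition, so their shared sign was fixed and is a description. The 212 were 64.6% of the 328 called in p27KO, and none was called in opposite directions. WT calls had a median size of 0.81 in WT and 0.63 in p27KO. Calls in p27KO had a median size of 1.101 in p27KO and 0.818 in WT. Each set was picked by its call in 1 genotype and was smaller in the other, so these medians do not compare the genotypes. The interaction of genotype and condition called 0 core promoters and 0% of all tested regions with limma, with 233 core promoters and 2760 regions at an unadjusted p under 0.05. When a peak counted for a region only with its summit within 250 bp of the region's summit, 6 core promoters were called. A p that misses the threshold does not show that the genotypes acted alike at a given promoter.

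**Figure D5:**
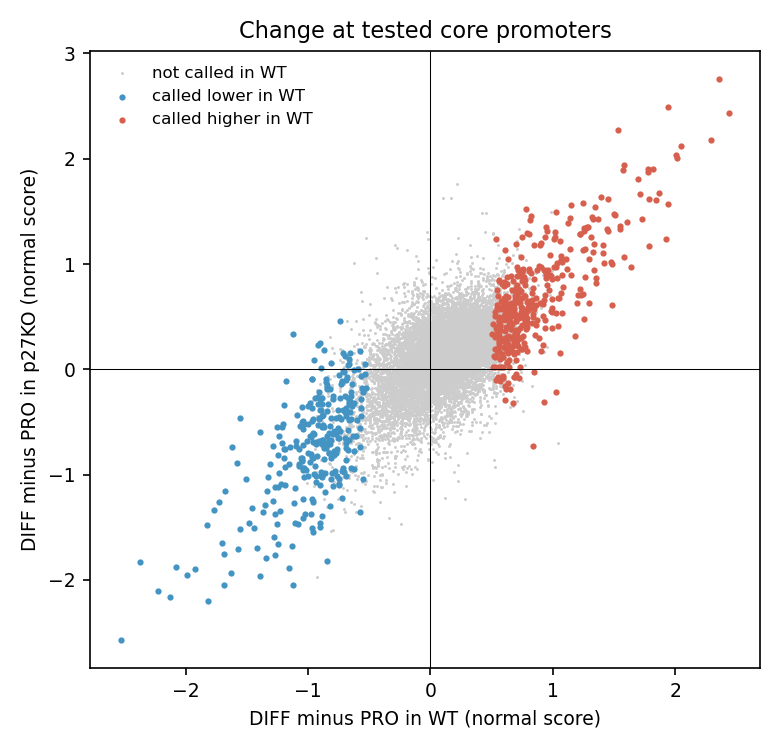
Change at DIFF against PRO in normal scores in WT (horizontal axis) and in p27KO (vertical axis) for the 13915 tested core promoters, each point coloured by its WT call. Of the 693 called in WT, 657 have the same sign in p27KO.

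Between genotypes 24 regions were called at PRO (0.034%) and 11 at DIFF (0.0156%) by limma, of which Cdkn1b was the only core promoter among those found in 5 lists or more. At an unadjusted p under 0.05 there were 358 core promoters at PRO and 329 at DIFF. By presence, 67 core promoters had a peak in both p27KO PRO and no WT PRO library (2.29% of all regions met this) and 24 the reverse (0.498%). At DIFF 26 had a peak in p27KO only (0.707% of all regions) and 31 in WT only (0.47%). Over all 10 libraries Cdkn1b was the only core promoter found in every WT library (6 of 6) and in 0 of the 4 from p27KO cultures. Of the 29 regions with that pattern 16 lay on chromosome Y, whose peaks divide the libraries as genotype does. Sex of the animals and genotype therefore cannot be told apart in any contrast between genotypes. The reverse pattern was seen at 57 regions and 3 core promoters, Tuba1b, an alpha tubulin, Pcdhga7, a protocadherin, and Tlr6, a Toll-like receptor, named after their values were seen. These regions had 4 lists and were not tested.

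Libraries resembled each other more at core promoters than elsewhere. The mean correlation of normal scores between libraries of a group was 0.921 over core promoters (8 pairs) and 0.835 over regions elsewhere, and between PRO and DIFF libraries of 1 genotype it was 0.876 (13 pairs) and 0.593. Between genotypes in the same condition it was 0.923 (12 pairs) and 0.833. These values describe libraries that share the same set of regions.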

How the data were processed

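The deposited files are ATAC-seq peak lists, 1 for each of 10 libraries. According to the submitters' processing notes and the study's methods, the authors trimmed reads with cutadapt and Trimmomatic (reads under 20 bases dropped), aligned them to GRCm38 with Bowtie2, handled duplicates with Picard and ran MACS2 in narrow peak mode with no model and an FDR of 0.05. Versions are not given in the sources used here. Each deposited peak has a fold enrichment (a ratio to the local background), a −log10 p-value, a −log10 q-value and a summit offset, none of them normalised for depth across libraries. Read counts are not in these lists, so the depth of each library and the precision it gives are unknown, and no peak means only that none was called.

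Peaks sharing at least 1 bp were merged, and starts came from GENCODE release 21 on GRCm38 (the authors used an earlier release). Ranks of fold enrichment within each list were converted to normal scores, absent peaks sharing the lowest rank, and fitted with limma 3.58.1 in R 4.3.3 as 4 group means, with Benjamini-Hochberg adjustment over 70627 regions. The fit was tested on simulated data, where it returned the size of the added changes but called a minority of them, and fewer in p27KO than in WT. Measures of whole libraries were tested by exact permutations that kept genotype or condition fixed (scipy 1.17.1, Python 3.11.15). Named genes were, for each genotype, the 10 largest called rises and falls (nearest region of each gene), up to 5 calls each way between genotypes, the 2 lowest p-values and 2 highest percentiles of each list, fixed genes (Cdkn1b, Sox2, Olig2, Mki67, Egfr, Gfap), genes with opposite calls, the 10 highest percentiles, and the 5 highest of those closed and opened in both genotypes. The members and lists were chosen with earlier results of these data known. Replicate numbers were not taken to pair libraries, since deviations of same-numbered WT libraries correlated at 0.06, 0.06 and 0.03 and those of p27KO at -0.14. Alternatives covered the ranking, the filter, the distance, stricter peaks and single libraries. The calls of 1 gene list are not reported here.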

Additional observations from a re-analysis of the deposited data

How the results depend on the processing

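The number of core promoters called in WT (693) was 457 with ranks over the core promoters alone, 444 with a replicate block and 1202 with starts within 3 kb. In p27KO (328) it was 142 in regions with a peak in all 10 lists, 215 with only the groups compared in the fit, 146 with ranks over the core promoters alone, 644 within 3 kb and 199 with 1 start per gene. Leaving out 1 library gave 306 to 619 calls in WT and 79 to 307 in p27KO. The interaction called 6 core promoters with summit windows of 250 bp and 0 with any library left out. The genotype contrasts called 12 at PRO and 7 at DIFF with those windows, 0 and 0 in regions with a peak in all 10 lists, which leaves out Cdkn1b by construction, 2 at DIFF with a peak in at least 2 lists, and 1 and 1 with any library left out.

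The replicate block changed WT calls to 225 lower and 219 higher and p27KO calls to 107 lower and 113 higher, and changed no call of the interaction or the genotype contrasts. Every WT library correlated best with its own number, as a hint from the data and not the design. A crossed block for p27KO, chosen after seeing the data, gave 139 lower and 148 higher.

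The difference in core promoters with a peak between p27KO and WT reversed to -76.4 with the top 57000 peaks of each list (adjusted p = 0.34, exact permutation test). With a library left out it was 3.58 to 282.8, and at DIFF against PRO -921.7 to -642.4. The median percentile differed by 2.44 to 2.87 points at DIFF and by -0.0372 to 0.393 points between genotypes, and reversed without p27KO PRO 1. The share of peaks differed by 1.90 to 3.87 points at DIFF and by -2.34 to -0.375 points between genotypes. Adjusted p reached 0.025 in 4 of these comparisons, all without WT DIFF 3.

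By presence, closed and opened counts in WT were 397 and 136 within 3 kb and 109 and 23 with 1 start per gene, with 26 opened within 500 bp. Those in p27KO were 1023 and 220 within 3 kb, 287 and 39 with 1 start per gene and 234 and 151 with the top 57000 peaks, with 48 opened within 500 bp and 136 with summit windows of 250 bp. Leaving out 1 library gave 193 to 496 closed and 56 to 106 opened in WT and 633 to 866 and 113 to 189 in p27KO. The cause of these shifts was not tested, beyond the wider or narrower definitions, fewer regions or fewer libraries. Among named genes and listed genes with a call, 1380 of the values under alternatives with all libraries kept their call and 194 lost it, and with a library left out 777 kept it and 343 lost it, with none reversed. Lists without read counts limit all of this to called peaks.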
